A study of Triticum dicoccoides with 12 samples.

Results

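In the phyllome (leaf-like organs) of wild emmer wheat, 26 of the 61115 wheat probe sets on the array (0.0425%) were bright only in well-watered plants of the drought-resistant genotype. A probe set is a group of short probes on the array that together read 1 transcript or a few related transcripts. The members were chosen by their own values: a signal of at least 258 on all 3 arrays of well-watered R, and below 129 on all 9 other arrays. Their levels in the 4 groups are therefore given as a description, with no test. The samples were R (Y12-3, labelled drought resistant) under terminal drought, R well-watered, S (A24-39, labelled drought susceptible) under terminal drought, and S well-watered, with 3 arrays each. All plants were 10 weeks old, in reproductive growth, and rooted in a mix of quartz sand and peat. Each genotype is a single ecotype, so a difference between R and S is one between these ecotypes. It is not stated in the labels if replicates are separate plants, and the p-values therefore reflect only how far these samples varied, possibly for technical reasons. In such bulk samples, fewer cells of a type and less RNA per cell cannot be told apart.

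Terminal drought is a lack of water late in the life cycle, when the plant flowers and fills its grain. Leaves then close their stomata, reduce photosynthesis and growth, and replace part of their transcripts by those of stress protection and senescence. Wild emmer is a tetraploid ancestor of cultivated wheat, and many of its genes exist as near-identical copies on its A and B genomes. The array was designed for bread wheat, which carries an additional D genome, and an ID ending in _x_at or _s_at marks probes that can bind more than 1 transcript. None of the 26 members is paired with a gene in the platform annotation, so they are given by probe set ID and no function can be stated. For the same reason they could not be looked up in lists of pathway genes.

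The label of the tissue could be checked only in part, on those genes of a list of leaf markers that the annotation held. The brighter probe sets of FBP (fructose-1,6-bisphosphatase), petC (the Rieske protein of the cytochrome b6f complex) and CAT1 (a catalase), and the probe set of GAPN (a non-phosphorylating glyceraldehyde-3-phosphate dehydrogenase), lay at or above 129 on all 12 arrays, with signals of 472 to 16057, 10878 to 68748, 19936 to 65969 and 224 to 12915. A further probe set of each of the first 3 genes was dimmer, and reached 129 on 2 arrays for FBP, 0 for petC and 8 for CAT1. The leaf markers RBCS and CAB and the grain markers GLU-1, GLI, PINA and PINB could not be matched in the annotation used here. The 4 probe sets of TTHV, THI1.2 and THI1.1, thionins that mark seedling or grain tissue, reached 129 on at most 1 array each. The level of 129 was used as the noise level for all arrays. It is the 95th percentile of 276 values from 23 probe sets that target no wheat transcript, whose median was 18.7. The bright threshold of 258 is 2 times that level, and 1 of the 276 control values reached it. On single arrays the 95th percentile of these controls ran from 53.6 to 230.2. The highest was on well-watered R replicate 3, where 258 is thus only slightly above it. A group with all arrays below 129 has only an upper bound there, and a fold against it is given as at least N-fold.

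The 26 members came from a far larger set of transcripts detected in well-watered R. A total of 15831 probe sets were bright on all 3 arrays of well-watered R. Of these, 391 were dim on all 3 R arrays under drought, 502 on all 3 S arrays under drought and 235 on all 3 well-watered S arrays. The R drought set and the well-watered S set shared 27 probe sets, of which 26 were dim in droughted S as well. A further 102 were bright in both R groups and dim on all 6 S arrays, and 73 were bright in both well-watered groups and dim on all 6 drought arrays. The members are the 26 that were dim both in the other genotype and under drought.

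The members gave moderate signals in well-watered R. A signal depends on the probes as well as on the transcript, so signals of different probe sets do not rank transcripts by abundance. The geometric mean signal over the 3 arrays of well-watered R had a median of 451 and ran from 283 to 1602, against a median of 1128 for all 15831 probe sets bright in that group. It exceeded 1000 for 3 members and 500 for 10. The members' median signal stood at percentiles 77.0, 76.2 and 74.9 of all wheat probe sets on the 3 arrays of well-watered R, and at percentiles 22.2 to 53.1 on the other 9 arrays. Set against the dim threshold, the geometric mean was at least 2.19-fold to 12.4-fold higher in well-watered R than in each other group. The median bound was 3.49-fold, and a bound of 2-fold is set by the rule itself. These bounds hold for the deposited scale. After each array was divided by its median, the geometric mean was 1.70 to 9.64 times the dim threshold. The bound passed 4-fold for the 10 members above 500.

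**Figure D1:**
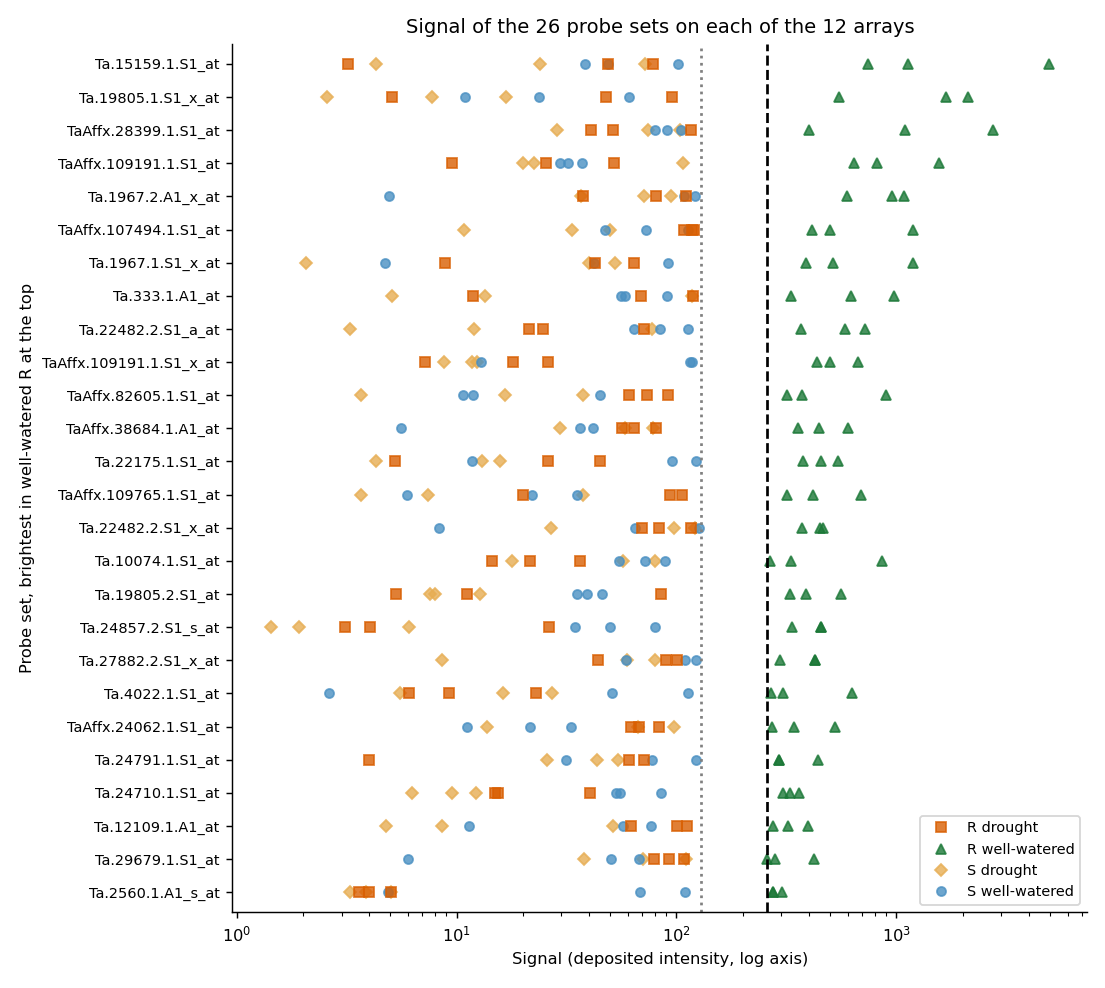
Signal (log axis) of the 26 members on the 12 arrays, 1 row for each probe set, with the brightest in well-watered R at the top. Squares are R under drought, triangles R well-watered, diamonds S under drought and circles S well-watered; the dotted line is 129 and the dashed line 258. All well-watered R signals lie between 259 and 4920.4, and all others between 1.44 and 126.

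The brightest member, Ta.15159.1.S1_at, had signals of 3.21, 49.1 and 78.4 in R under drought, 4920.4, 739 and 1130.1 in well-watered R, 4.29, 72.0 and 23.9 in S under drought and 38.5, 102 and 48.8 in well-watered S. Its level in well-watered R was at least 12.4-fold that of each other group, and replicate 1 was several times as bright as the other two. Ta.19805.1.S1_x_at had signals of 5.09, 95.1 and 47.6 in R under drought, 1688, 548 and 2122 in well-watered R, 16.8, 2.58 and 7.72 in S under drought and 10.9, 23.6 and 61.1 in well-watered S, at least 9.71-fold lower in R under drought than in well-watered R. Replicate 2 was the lowest of the 3 arrays of well-watered R here.

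TaAffx.28399.1.S1_at measured 40.7, 51.6 and 116 in R under drought, 399, 2737 and 1097 in well-watered R, 28.8, 104 and 74.2 in S under drought and 90.8, 105 and 79.8 in well-watered S. Replicate 2 was the brightest of well-watered R for this probe set and replicate 1 the dimmest, so the order of the arrays was not shared between members. TaAffx.109191.1.S1_at measured 9.58, 25.5 and 51.8 in R under drought, 643, 1561 and 813 in well-watered R, 107, 20.1 and 22.4 in S under drought and 37.1, 32.1 and 29.5 in well-watered S, and its level in well-watered R was at least 7.24-fold higher than in the rest. A second probe set on the same source sequence, TaAffx.109191.1.S1_x_at, was a member too, with 666, 499 and 435 in well-watered R and 7.22 to 117 elsewhere.

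Stem Ta.1967 (the part of the ID that names the sequence cluster) also gave 2 members. Ta.1967.2.A1_x_at had 37.4, 111 and 80.7 in R under drought, 953, 596 and 1088 in well-watered R, 37.0, 94.1 and 71.0 in S under drought and 122, 4.94 and 109 in well-watered S. Ta.1967.1.S1_x_at had 42.5, 8.90 and 63.9 in R under drought, 515, 387 and 1189.6 in well-watered R, 52.3, 2.06 and 39.8 in S under drought and 42.0, 91.2 and 4.72 in well-watered S. Both were brightest in replicate 3 of well-watered R and dimmest in replicate 2, and their groups did not overlap by the rule that chose them.

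TaAffx.107494.1.S1_at measured 108, 118 and 121 in R under drought, 1184, 411 and 497 in well-watered R, 10.8, 50.1 and 33.4 in S under drought and 73.0, 113 and 47.5 in well-watered S. Its 3 droughted R arrays lay close below 129, whereas those of droughted S were at most 50.1. Ta.333.1.A1_at measured 11.9, 119 and 69.2 in R under drought, 331, 619.7 and 979.7 in well-watered R, 13.5, 117 and 5.08 in S under drought and 56.2, 90.2 and 58.2 in well-watered S. It had values near 129 on replicate 2 of both drought groups.

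Ta.22482.2.S1_a_at had 718, 583 and 368 in well-watered R and 3.29 to 112 on the other 9 arrays. TaAffx.82605.1.S1_at had 901, 370.3 and 319.6 in well-watered R and 3.67 to 91.3 elsewhere, and TaAffx.38684.1.A1_at had 355, 601 and 445 in well-watered R and 5.58 to 80.9 elsewhere. With TaAffx.109191.1.S1_x_at, these complete the 12 members with the highest signals. The 14 dimmer members had geometric means of 283 to 452 in well-watered R. The dimmest, Ta.2560.1.A1_s_at, had 4.00, 5.01 and 3.60 in R under drought, 302, 273 and 274 in well-watered R, 5.04, 3.87 and 3.27 in S under drought and 109.7, 68.1 and 4.86 in well-watered S, at least 2.19-fold lower in R under drought than in well-watered R. Its 3 arrays of well-watered R were also the most even of all members.

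The spread between the 3 arrays was wide for several members. The SD of the log2 signal in well-watered R had a median of 0.467 over the members and ran from 0.081 to 1.44. For comparison, the median was 0.303 over the 9705 probe sets bright in well-watered R with a geometric mean in the same range. The largest SDs belonged to Ta.15159.1.S1_at (1.44), TaAffx.28399.1.S1_at (1.39) and Ta.19805.1.S1_x_at (1.04), which are the 3 brightest members. The smallest were those of Ta.2560.1.A1_s_at (0.081), Ta.24710.1.S1_at (0.124) and Ta.22482.2.S1_x_at (0.176). The highest array was less than 2 times the lowest for 15 members, 2 to 4 times for 9 and over 4 times for 2. Replicate 1 was the brightest array for 11 members, replicate 2 for 6 and replicate 3 for 9.

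Outside well-watered R the members gave 234 signals with a median of 41.9, of which 32 exceeded 100. The median was 50.3 in R under drought, 19.0 in S under drought and 54.1 in well-watered S. As all 234 lie below 129, the control level pooled over all arrays, no order between these groups is read from them. Some were still above the 95th percentile of the controls on their own array. For TaAffx.107494.1.S1_at, the 3 droughted R signals were 108, 118 and 121, against own-array percentiles of 53.6, 114 and 61.3. Dim thus means below 129, and not below the noise of each array. Every member had at least 1 of the 234 signals above 0.5 times the dim threshold, so with that stricter limit on the 9 arrays no member remained.

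Several members lay next to a threshold. On the bright side, the lowest well-watered R signals were 259 (Ta.29679.1.S1_at, replicate 1), 268 (Ta.10074.1.S1_at, replicate 2) and 269 (Ta.4022.1.S1_at, replicate 3). Just outside stood Ta.4555.2.S1_at, TaAffx.81412.1.S1_at and TaAffx.113577.1.S1_at, with 251, 245 and 243, all on replicate 2. On the dim side, Ta.22482.2.S1_x_at, Ta.22175.1.S1_at and Ta.27882.2.S1_x_at had their highest other signal at 126, 122 and 122, each on an array of well-watered S. Just outside were TaAffx.28859.1.S1_s_at, TaAffx.73741.1.S1_at and TaAffx.3945.1.S1_at with 131, 132 and 135, also on well-watered S. With 129 as the only limit, and thus no gap between bright and dim, 163 probe sets were met.

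Well-watered R replicate 3 stood apart from the other arrays. Its median signal was 151.5, against 58.6 to 103 on the other 11. The 95th percentile of the 23 control probe sets was 230.2 on this array, 173 on replicate 1 and 72.8 on replicate 2 of well-watered R, and 53.6 to 168 on the 9 arrays of the other groups. The 27 probe sets of the bacterial and phage hybridization controls had a geometric mean of 17657 on replicate 3, against 4741 to 10564 on the other 11 arrays. A total of 739 probe sets were bright on replicate 3 alone and dim on the other 11 arrays, where the same count was 56 for replicate 1 and 15 for replicate 2 of well-watered R and 1 to 34 for the other 9 arrays. After each array was divided by its own median, the 739 became 11, within the range of 1 to 42 of the other arrays. The part of the control signals in the choice of the members was not tested.

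**Figure D2:**
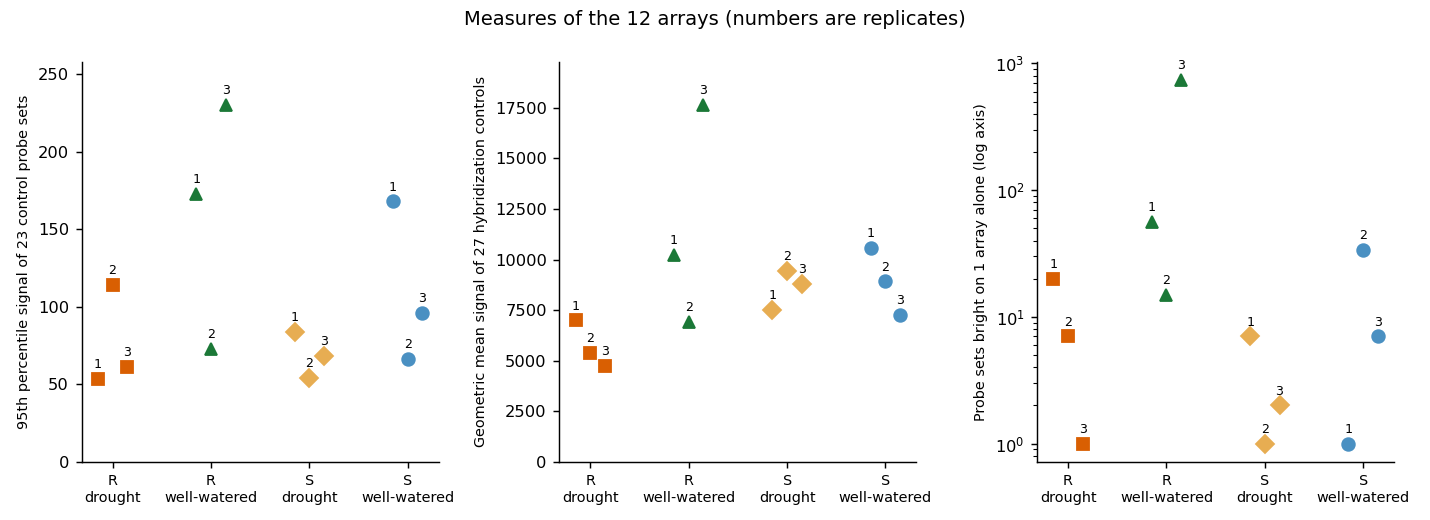
Left, the 95th percentile signal of the 23 control probe sets; middle, the geometric mean signal of the 27 hybridization controls; right, the number of probe sets at 258 or more on 1 array and below 129 on the other 11 (log axis). Each point is 1 array, numbered by replicate, in the 4 groups; replicate 3 of well-watered R is the highest in all 3 panels, with 230.2, 17657 and 739.

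The size of the set changed with the scaling. After each array was divided by its median (and multiplied by the mean of the 12 medians), 8 of the 26 members met the rule and no other probe set did. Of the 18 that did not, 11 failed because a well-watered R signal fell below 258, 2 because another array reached 129, and 5 for both reasons. Replicate 3 of well-watered R fell below 258 for 16 members, replicate 1 for 5 and replicate 2 for none. The members' median signal after this scaling was 369.55, 440.00 and 241 on replicates 1, 2 and 3 of well-watered R, against 459.98, 414 and 439.9 as deposited.

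The 8 members that met the rule on both scales were Ta.15159.1.S1_at, Ta.19805.1.S1_x_at, TaAffx.109191.1.S1_at, Ta.1967.2.A1_x_at, Ta.1967.1.S1_x_at, Ta.333.1.A1_at, Ta.19805.2.S1_at and TaAffx.24062.1.S1_at, and 6 of them are among the 12 brightest. TaAffx.109191.1.S1_at had 516, 1657 and 445 in well-watered R after division by the median, and 12.9 to 116 elsewhere. TaAffx.24062.1.S1_at, one of the 14 others, had 275, 290.1 and 287 in well-watered R and 11.3 to 103 elsewhere on that scale. The brightest 5 that no longer met it were TaAffx.28399.1.S1_at, TaAffx.107494.1.S1_at, Ta.22482.2.S1_a_at, TaAffx.109191.1.S1_x_at and TaAffx.82605.1.S1_at. For TaAffx.28399.1.S1_at and TaAffx.107494.1.S1_at, droughted R replicate 3 then stood at 164 and 171, above 129.

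**Figure D3:**
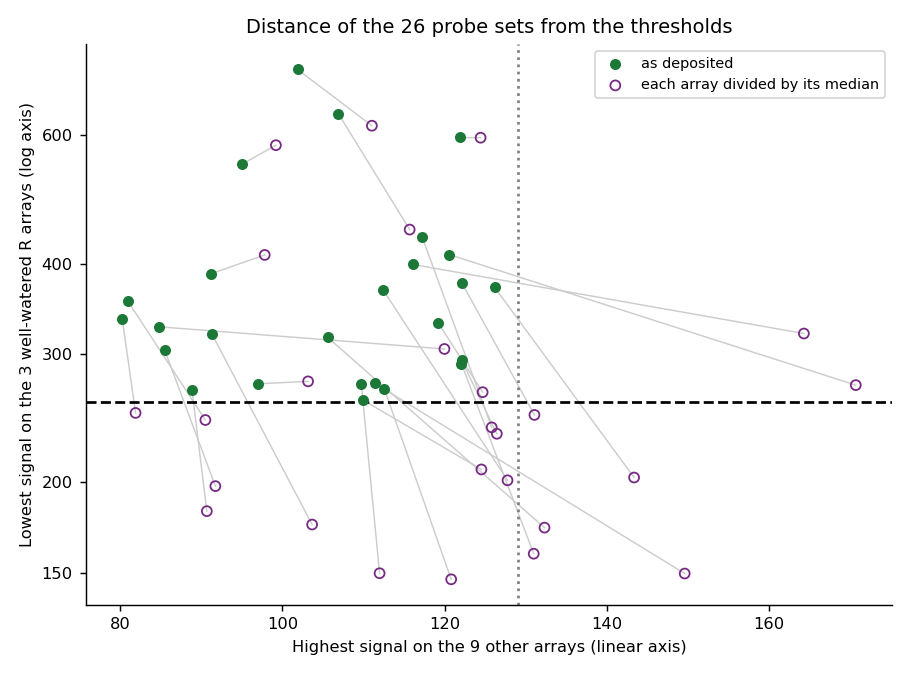
Each of the 26 members as deposited (filled) and after division of each array by its median (open), joined by a line. The horizontal axis is its highest signal on the 9 other arrays, the vertical log axis its lowest signal on the 3 well-watered R arrays; the dashed line is 258 and the dotted line 129. All 26 filled points and 8 open points lie in the upper left field.

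Quantile normalization kept 14 of the 26, including all 8 named above, and added none. Scaling to the hybridization controls, an alternative added after the data were seen, left 4 probe sets, of which 2 were among the 26. TaAffx.109191.1.S1_at and Ta.1967.1.S1_x_at were the members that met the rule on all 4 scales. With the 95th percentile of each array's own controls as the dim limit and 2 times it as the bright limit, 2 probe sets were met, 1 of them a member. All 26 members were above that percentile on every array of well-watered R, and 8 were above 2 times it, 6 of which also met the rule after division by the median. Without replicate 3 of well-watered R the rule found 28 probe sets, and without replicate 1 it found 37. Without replicate 2 it found 75.

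The other groups were searched with the same thresholds. As deposited, 7 probe sets were bright only in R under drought, 26 only in well-watered R, 8 only in S under drought and 13 only in well-watered S. After division by the median the counts were 13, 8, 8 and 17, so that well-watered R no longer had the most. With quantile normalization they were 10, 14, 7 and 15, and with scaling to the hybridization controls 23, 4, 4 and 9. The difference between groups in the number of such probe sets was not tested, and its order changed with the scaling. Near misses showed where the limit lay: 37 further probe sets were bright on replicates 1 and 3 of well-watered R and dim on all other arrays, 1 on replicates 1 and 2, and 1 on replicates 2 and 3. After division by the median these 3 counts were 3, 0 and 0.

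**Figure D4:**
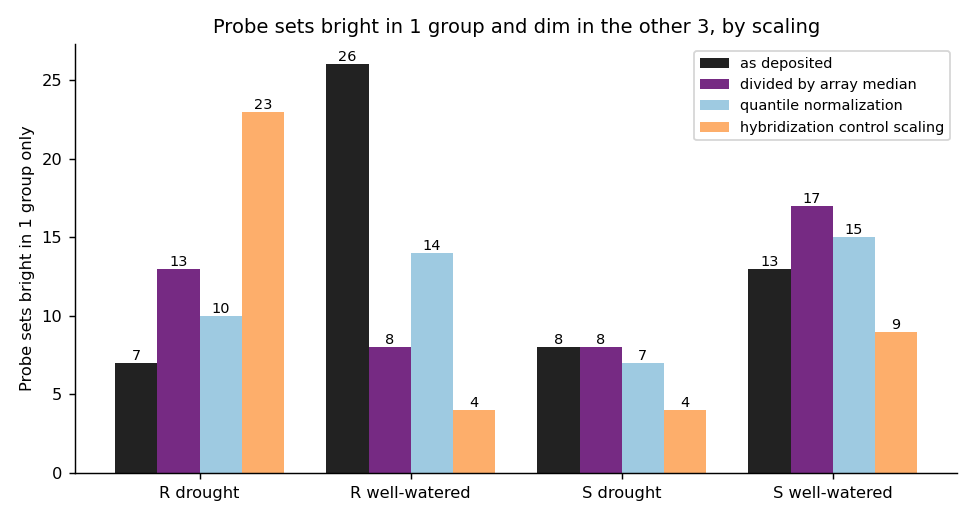
Number of probe sets at 258 or more on all 3 arrays of 1 group and below 129 on the other 9, for the 4 groups and 4 ways of scaling the arrays. Well-watered R has 26 as deposited, 8 after division by the array median, 14 after quantile normalization and 4 once scaled to the hybridization controls.

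The IDs hold some information that the rule did not use. Of the 26 members, 18 (69.2%) have the prefix Ta and 8 (30.8%) the prefix TaAffx, against 76.8% and 23.2% of the probe sets bright in well-watered R and 51.4% and 48.6% of all. Suffix _x_at, for probes that may cross-hybridize, was carried by 6 members (23.1%), against 17.8% of the bright probe sets and 11.1% of all. The letter A, which marks the antisense orientation of the source sequence in the array's naming, was carried by 5 members (19.2%), close to the 17.4% of all probe sets. The 26 members fall into 22 ID stems, and 4 stems (Ta.1967, Ta.19805, Ta.22482 and TaAffx.109191) have 2 members each. Members of a stem read the same sequence cluster and can share probes, so they are not independent.

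The array holds 17 further probe sets with the stem of a member, spread over 10 stems. Their own values did not enter the rule, except that a probe set that met it would be a member. Some are on the same source sequence as a member and can share probes with it. The choice of the members can thus have set part of their pattern. In 10 of the 17, every array of well-watered R was brighter than all 9 other arrays, as in 3.79% of all wheat probe sets. Of the 17, 6 were bright on all 3 arrays of well-watered R, 6 on 1 or 2 of them and 5 on none. Those named next, beyond Ta.19805.2.S1_a_at, were chosen after their values were seen.

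Ta.19805.2.S1_a_at is of the same stem as the members Ta.19805.1.S1_x_at and Ta.19805.2.S1_at. Its signals were 4.91, 9.19 and 145 in R under drought, 10113, 5201 and 10197 in well-watered R, 3.05, 2.80 and 5.25 in S under drought and 41.9, 5.89 and 30.1 in well-watered S. Only replicate 3 of droughted R, at 145, kept it from being a member. It was lower by a log2 difference of −7.53 ± 0.67 in R under drought than in well-watered R (adjusted p = 2.75e-06, limma on log2(signal + 16), ± SE), where 2 of the 3 droughted R arrays were below 129. Both S groups were below 129 on all arrays. This probe set passed the filter on low values (given below) only with the well-watered R arrays. The outcome of its tests was therefore partly fixed in advance, and its p-values are not used as evidence of a difference. The signal was at least 63.0-fold higher in well-watered R than in well-watered S. The fitted log2 difference was 7.71 ± 0.67 (adjusted p = 9.81e-06, limma). Here and below, an adjusted p beside an at-least fold belongs to the fitted difference, which uses signals below 129 as they are. The member Ta.19805.2.S1_at had 389, 327 and 557 in well-watered R, while another probe set of the stem, Ta.19805.1.S1_at, had 10.8, 70.5 and 351 there and was bright on replicate 3 alone.

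In stem Ta.27882, 2 related probe sets were bright in well-watered R and also reached 129 in droughted R. Ta.27882.1.S1_s_at had signals of 124, 259 and 537 in R under drought, 3153, 3015 and 1751 in well-watered R, 4.11, 13.4 and 7.33 in S under drought and 8.08, 215 and 44.3 in well-watered S. It was lower in R under drought (−3.21 ± 0.68, adjusted p = 0.00224) and higher in well-watered R than in well-watered S (5.21 ± 0.68, adjusted p = 0.000306), where 1 of the 3 well-watered S arrays reached 129. Its signals in well-watered R were above all 9 others. Ta.27882.1.S1_x_at had 33.9, 187 and 189 in R under drought, 759, 1358 and 717 in well-watered R, 4.72, 5.30 and 2.16 in S under drought and 43.3, 85.3 and 5.03 in well-watered S. Its log2 difference for drought in R was −2.85 ± 0.65 (adjusted p = 0.00354), and it was at least 7.01-fold higher in well-watered R than in well-watered S (adjusted p = 0.00112). In both, droughted R reached 129 on 2 of 3 arrays, whereas the member of this stem, Ta.27882.2.S1_x_at, had 43.9, 100.4 and 89.3 there and 295, 426 and 426 in well-watered R.

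In stem Ta.22482, both related probe sets were bright in well-watered R, and each reached 129 on some S arrays. Ta.22482.1.S1_s_at had 10.2, 99.6 and 163 in R under drought, 1658, 1397 and 957 in well-watered R, 86.3, 409.6 and 165 in S under drought and 230.1, 115 and 359 in well-watered S. Its log2 difference was −4.02 ± 0.67 for drought in R (adjusted p = 0.000355, limma) and 2.52 ± 0.67 for R against S in well-watered plants (adjusted p = 0.0345). Its droughted R signals of 10.2 and 99.6 were below 129, so the size of the drought difference rests partly on values within the noise. Ta.22482.1.S1_at had 35.7, 128.7 and 72.2 in R under drought, 890.3, 793 and 552 in well-watered R, 68.3, 236 and 88.9 in droughted S and 73.8, 117 and 319.7 in well-watered S. It was at least 5.66-fold lower in R under drought than in well-watered R (adjusted p = 0.000661). Its log2 difference between well-watered R and well-watered S was 2.23 ± 0.56 (adjusted p = 0.0264), with 1 of the 3 well-watered S arrays above 129.

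In stem Ta.2560 the related probe set and the member differed. Ta.2560.1.A1_x_at had 68.8, 139 and 152 in R under drought, 854, 817 and 846 in well-watered R, 46.0, 136 and 53.6 in S under drought and 417, 603 and 430.1 in well-watered S. It was thus bright in both well-watered groups, and its difference between well-watered R and well-watered S was 0.80 ± 0.39 (adjusted p = 0.27). Under drought in R it was lower by a log2 difference of −2.72 ± 0.39 (adjusted p = 0.000125). The member of this stem, Ta.2560.1.A1_s_at, was dim in well-watered S.

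**Figure D5:**
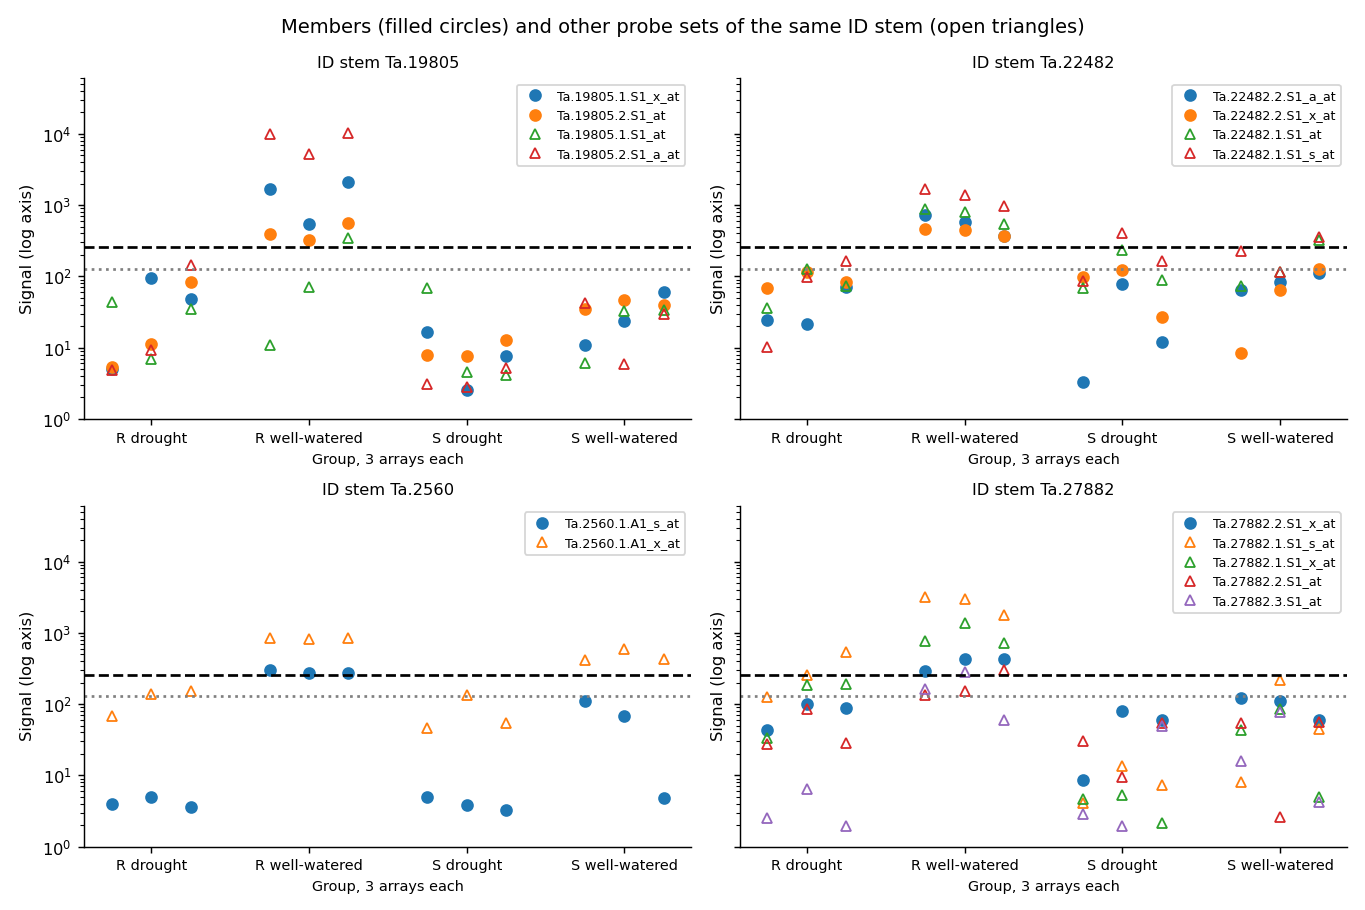
Signal (log axis) on the 12 arrays of members (filled circles) and of related probe sets (open triangles) for 4 ID stems, 3 arrays in each group. The dotted line is 129 and the dashed line 258. Ta.19805.2.S1_a_at reaches 5201 to 10197 in well-watered R, and Ta.2560.1.A1_x_at is bright in both well-watered groups, with 817 to 854 in R and 417 to 603 in S.

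The filter on low values kept probe sets that exceeded the array median on 3 or more arrays, and 10 of the 17 passed it. All 26 members passed it, as well-watered R alone was enough for that, so no calls are counted for them. For a related probe set that passed in that way, the outcome was partly fixed in advance too. Of the 10, 9 were lower in R under drought (limma), against 19.8% of all 38398 tested probe sets. Of these 10, 2 (Ta.19805.2.S1_a_at and Ta.27882.2.S1_at) passed the filter only with the well-watered R arrays, and 7 of the other 8 were lower. The tenth, Ta.12109.2.S1_at, was below 129 on all 12 arrays, so no difference was measured (adjusted p = 0.606). With no filter, 10 of 17 were lower, against 12.3% of all 61115 probe sets. Between well-watered R and well-watered S, 5 of the 10 were higher in R, against 4.36% of all tested, and 4 of the 8 that passed without the well-watered R arrays. With no filter, 6 of 17 were higher, against 2.63%. Since probe sets of 1 stem can share probes and transcripts, these counts are not over independent measures, and all 17 come from 10 stems. For the same reason they are not independent of the choice of the members, and how far that choice raised the counts was not tested.

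The background moved with the scaling. The median fitted log2 difference for drought in R over all tested probe sets was −0.322 as deposited, 0.288 with median scaling, 0.035 after quantile normalization and 0.5 once scaled to the hybridization controls. The share of all tested that was lower under drought was 19.8%, 8.40%, 15.1% and 5.45% in that order, and lower calls made up 59.3%, 28.6%, 48.3% and 19.6% of all drought calls. The related probe sets had a median of −2.80 as deposited, and differed from the median of all by −2.48, −2.48, −2.54 and −2.48 under the 4 scalings. Median scaling and hybridization control scaling multiply a whole array by a constant. They move both medians nearly alike, so the near-equal differences are no sign of stability. With 4 of the related probe sets set to their bound and Ta.12109.2.S1_at left out, their median was −2.72 over 9 probe sets. For well-watered R against well-watered S, the median over all was 0.112, −0.314, −0.039 and −0.145, and the share higher in R was 4.36%, 2.21%, 3.75% and 2.14%. The related probe sets had a median of 2.18 as deposited, or 2.23 over 9 with 4 at their bound.

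The drought calls of TaAffx.109765.2.S1_at (at least 2.145-fold lower, adjusted p = 0.0183) and Ta.27882.2.S1_at (at least 1.417-fold lower, adjusted p = 0.0492) were the weak ones. Both were below 129 on all 3 droughted R arrays, and the calls held in 13 and 5 of 20 alternatives. Ta.27882.2.S1_at had also passed the filter only with the well-watered R arrays. The count of 5 in the comparison of the genotypes fell to 3 with median scaling, with hybridization control scaling, and when replicate 1 of well-watered R, or replicate 1 or 2 of well-watered S, was left out. In each of these Ta.22482.1.S1_at and Ta.22482.1.S1_s_at lost the call (adjusted p = 0.0688 to 0.127, limma). Over all 20 alternatives they kept it in only 14 and 11. Ta.19805.2.S1_a_at, Ta.27882.1.S1_s_at and Ta.27882.1.S1_x_at kept it in all 20 alternatives. The drought call held in all 20 for these 3, for Ta.22482.1.S1_at and Ta.22482.1.S1_s_at, and for Ta.22175.1.S1_x_at and Ta.2560.1.A1_x_at.

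The drought effect was also compared between the genotypes. The interaction (the drought effect in R minus that in S) passed the threshold for 1 of the 10 related probe sets, against 0.0729% of all tested and, with no filter, 1 of 17 against 0.0458%. This was Ta.19805.2.S1_a_at, with −6.55 ± 0.95 (adjusted p = 0.0169, limma). It passed the filter only with the well-watered R arrays, so the outcome was partly fixed in advance. Its signals in S were below 129 in both regimes, as were 2 of its 3 signals in droughted R, so the fitted value rests on levels that were not measured above the noise, and its drought effect in S is not a measured change. Over 20 alternatives the difference ran from −7.49 to −5.86 and the adjusted p from 0.000259 to 0.123. The call was lost with a pseudocount of 1 (adjusted p = 0.123), with eBayes without a trend (0.0509), and when 1 array was left out: well-watered R replicate 1 (0.0623), well-watered R replicate 3 (0.0529), droughted S replicate 3 (0.0548) or well-watered S replicate 2 (0.0517).

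The other 7 related probe sets were below the filter. Ta.24857.2.S1_a_at had 2.50, 5.50 and 2.17 in R under drought and 101, 56.4 and 489 in well-watered R, bright on replicate 3 alone, whereas the member of the stem, Ta.24857.2.S1_s_at, had 455, 336 and 455 in well-watered R. Ta.27882.3.S1_at had 2.48, 6.50 and 1.95 in R under drought and 163, 286 and 59.1 in well-watered R. The antisense probe set Ta.24791.1.A1_at had 9.19, 36.6 and 149 in well-watered R, while the sense member Ta.24791.1.S1_at had 438, 293 and 291. The others (Ta.19805.1.S1_at, given above, and Ta.24857.1.S1_at, Ta.24857.2.S1_x_at and TaAffx.109191.2.S1_at) were dim on all arrays but replicate 3 of well-watered R, or on all 12. For 11 of the 26 members, the array holds no second probe set of the stem, so the pattern rests on 1 probe set each.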

How the data were processed

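Samples were 12 extracts of total RNA, biotin-labelled and hybridised to 1 array each, and the titles gave group and replicate. The description's last line repeats 1 genotype and regime throughout and was ignored. The deposited intensities are on a linear scale and come from the MAS5 algorithm according to the submitters' processing notes, with version and scaling target not given in the sources. Of 61290 probe sets, 111 AFFX and 64 RPTR controls were left out. The members and lists were chosen with earlier results of these data known. The rule was applied to the deposited intensities and repeated after other scalings. Related probe sets share the ID up to its last 2 dot-separated fields. For these, log2(signal + 16) was fitted over all 12 arrays and 38398 probe sets with limma 3.58.1 in R 4.3.3 (lmFit, eBayes with a trend), and p-values were adjusted by Benjamini-Hochberg within a contrast (threshold 0.05); this scale compresses changes of dim probe sets. The fit was tested on simulated data. At-least folds compare geometric means, with arrays below 129 set to 129. An adjusted p beside such a fold is that of the fitted difference, not of the bound. The number of arrays limits the precision. The probe sets named were the 12 brightest members, those nearest the thresholds, those with the smallest and largest SD, the brightest 5 lost after median scaling and related probe sets called for the interaction; other IDs were chosen after their values were seen. Alternatives were other scalings, thresholds, pseudocounts, no filter, no trend, a replicate block and leaving out each array; hybridization control scaling was added after the data were seen. The annotation, dated 2007, pairs 1273 probe sets with a gene. Figures were drawn with matplotlib 3.10.9.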

Additional observations from a re-analysis of the deposited data

Results flagged for a closer look

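1 result was marked because a fitted difference between the drought effects of the genotypes passed its test, although most of the levels behind it were below the noise of the array. Ta.19805.2.S1_a_at, a probe set of the same ID stem as the members Ta.19805.1.S1_x_at and Ta.19805.2.S1_at, had an interaction of −6.55 ± 0.95 on the log2 scale (R minus S, adjusted p = 0.0169, limma, 0.000259 to 0.123 over 20 alternatives). Its mean signal was 53.0 ± 79.6 in R under drought, 8504 ± 2860.4 in well-watered R, 3.70 ± 1.35 in S under drought and 25.95 ± 18.4 in well-watered S (SD, n = 3). All 6 S signals and 2 of the 3 droughted R signals were below 129. The drought effect in S was therefore not measured, and the size of the difference is not a measured value. The probe set also passed the filter on low values only with the well-watered R arrays, so the outcome of the test was partly fixed in advance.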

How the results depend on the processing

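The direction of the members' levels is fixed by the rule, so the alternatives bear on their number. It was 26 as deposited, 8 with median scaling, 14 with quantile normalization, 4 with hybridization control scaling, 4 with 2 times the bright threshold, 0 with 0.5 times the dim threshold, 163 with no gap between thresholds, and 2 with each array's own control percentile. With 1 array left out it ran from 26 to 75. The members' median signal in well-watered R, 450.8, was 349.7 with median scaling, 391 after quantile normalization and 344 once scaled to the hybridization controls, and 419 to 481 with 1 array left out. The median log2 bound for R under drought against well-watered R, −1.80, was −1.43, −1.60 and −1.38 under those scalings, and −1.90 to −1.70 with 1 array left out. Among related probe sets, the count lower under drought in R was 9 of 10 tested as reported. It was 7 to 9 of the 9 or 10 tested in the alternatives that kept the filter, and 10 of 17 with no filter. The count higher in well-watered R than in well-watered S, 5, was 3 with median scaling, 3 with hybridization control scaling and 3 to 5 with 1 array left out. The interaction count, 1, was 0 with a pseudocount of 1 and 0 without a trend in eBayes (limma, with 3 at an unadjusted p under 0.05 in both), and 0 to 1 with 1 array left out. Replicate numbers were shared between groups, but they pair no samples in the labels, and 1 of 18 same-numbered pairs of arrays correlated above 0.1 in their deviations (−0.126 to 0.181). An array correlated best with its own number in 12 of 36 cases. With the replicate block the 3 counts were 8, 5 and 1. The noise of the control probe sets limits what can be called dim, and arrays differ in it.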
